A study of Homo sapiens with 5 samples.

Results

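The TGF-beta and SMAD mRNAs described here are 10 transcripts chosen by name: the ligands TGFB1 and TGFB2, the receptors TGFBR1 and TGFBR2, the signalling proteins SMAD2, SMAD3 and SMAD4, the inhibitory SMAD6 and SMAD7, and the co-repressor SKI. They were 10 of the 56632 genes in each table, and 8 of the 10 were among the 11764 analysed genes, which had a mean of at least 1 FPKM over the 5 libraries. FPKM is the number of sequenced fragments scaled to the length of the transcript (per kilobase) and to the total of the library. TGFB2 and SMAD6 fell below that limit. All 8 analysed members had more than 1 FPKM in both inputs, so none passed only through an enriched library.

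The 5 libraries came from MCF10A, an established line of non-tumorigenic human breast epithelial cells grown with horse serum, insulin, EGF, hydrocortisone and cholera toxin, and left untreated. RNA immunoprecipitation (RIP) recovers the RNA that comes down with a protein, and the input is RNA of the same cells without that step. For CBFB there was 1 RIP with a FLAG antibody and 1 input, both from a stable line expressing FLAG-tagged CBFB. For hnRNPK there were 2 RIP repeats and 1 input, all from parental cells. The labels do not give the end of CBFB that carried the tag, or whether the cells kept their own CBFB. No mock immunoprecipitation was analysed here.

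TGF-beta ligands are secreted in a latent form and, once active, bring together type II and type I receptors. The type I receptor phosphorylates SMAD2 and SMAD3, which join SMAD4, enter the nucleus and change transcription. SMAD6, SMAD7 and SKI restrain the pathway, and in breast epithelium TGF-beta is known for halting growth and for driving epithelial-mesenchymal transition. CBFB is the partner subunit of the RUNX transcription factors, some of which act with SMAD proteins. hnRNPK is an RNA-binding protein with a known liking for runs of C.

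Because of that liking, the most C-rich stretch of 24 bases was read from 1 protein-coding transcript of each member (GENCODE release 29, GRCh38, the longest one whose identifier is also in the tables). The stretches of 6 members are shown 5′ to 3′ as DNA letters of the sense strand. Capitals mark every CCCC or TCCC, overlapping ones included.
TGFB1: TCCCgCCCCgCCCCgCCCCgCCCC
SKI: CCCCggCCCCCCCCCCaCCCCCtc
SMAD3: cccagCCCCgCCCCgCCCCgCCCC
SMAD2: TCCCCtctTCCCCTCCCagCCCCC
SMAD4: cTCCCCtcgccaccgcccgagccc
TGFBR1: ctccgcgTCCCCggctgctcctcc
The first 3 lie in 3′ UTRs, at bases 2043 to 2066 of ENST00000221930.5 (TGFB1, chromosome 19), 5308 to 5331 of ENST00000378536.4 (SKI, chromosome 1) and 2083 to 2106 of ENST00000327367.8 (SMAD3, chromosome 15). The SMAD2 stretch lies in the 5′ UTR of ENST00000262160.10 (chromosome 18) at bases 95 to 118, and that of SMAD4 in the 5′ UTR of ENST00000342988.7 (chromosome 18) at bases 386 to 409. The TGFBR1 stretch is coding, at bases 137 to 160 of ENST00000374994.8 (chromosome 9). Within these stretches TGFB1 and SMAD3 thus both carry CCCC repeated with a single G between, and TGFBR1 carries 1 short run. The whole TGFBR1 transcript holds 10 CCCC and 17 TCCC.

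TGFB1 and SKI had the densest C runs among the 10 transcripts. TGFB1 held 17.7 CCCC per kb, more than 96.9% of the 10507 analysed genes with a matched transcript, and SKI held 16.9 per kb, more than 96.3%. The median over those genes was 4.49 per kb. SMAD7 followed at 14.2, SMAD6 at 12.5 and SMAD3 at 9.28 per kb, all above the upper quartile of 8.51. TGFBR2 stood at the middle with 4.54 per kb. SMAD2 (2.64), TGFB2 (2.57), SMAD4 (1.94) and TGFBR1 (1.53) were below the median, TGFBR1 lower than all but 13.9% of genes. In SKI 78 of the 95 CCCC lie in the 3′ UTR, whereas in TGFB1 31 of 49 lie in the 5′ UTR. Holding the motif at all set no gene apart, since 98.4% of the matched transcripts contain CCCC and 99.6% contain TCCC.

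Expected counts, the fragments that RSEM assigns to genes, summed to between 69786576 and 106855647 per library. Transcripts of the mitochondrial genome took 4.27% of counts in the input of FLAG-CBFB cells, 62.2% in their RIP, 11.2% in the input of parental cells, and 84.5% and 86.6% after hnRNPK RIP. FPKM of nuclear transcripts was therefore low in the RIPs as a whole. For this reason enrichment is given here as log2(FPKM + 1) of a RIP minus that of its own input, centred on the mean over the 11764 analysed genes, and a value above 2, which is 4-fold, counts as called. The pseudocount shrinks the changes of weakly expressed genes, and the centring then lifts them, so that a gene at 0 FPKM in every library takes 1.34 for CBFB and 2.64 for hnRNPK. All 8 listed breast epithelial markers exceeded 1 FPKM in both inputs, while the summed FPKM of 5 fibroblast markers was at most 2.79 that of 4 immune markers at most 3.92 and that of 2 endothelial markers at most 0.01. RUNX1 mRNA, which the study had as a bound transcript, reached 2.13 for CBFB and 3.09 ± 0.28 (SD, n = 2) for hnRNPK, and GAPDH, its unbound one, stood at -0.18 and -2.69 ± 0.04.

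**Figure D1:**
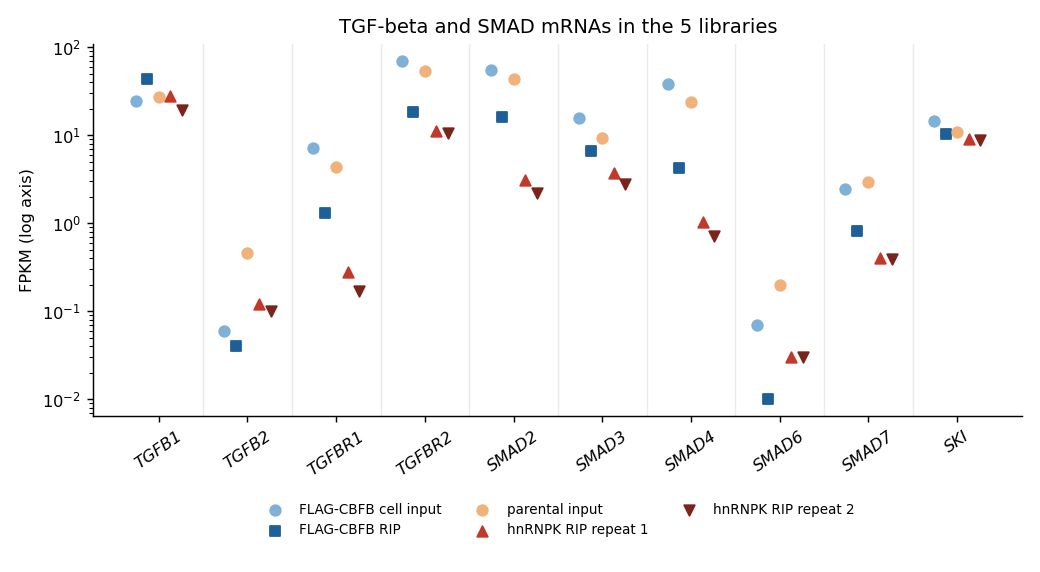
FPKM on a log axis of the 10 mRNAs, with 1 point per library and colours and shapes for the 5 libraries. TGFB1 is the only mRNA whose FLAG-CBFB RIP point (43.2 FPKM) lies above its input (24.8 FPKM), and TGFB2 and SMAD6 stay below 0.5 FPKM in every library.

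In the inputs TGFBR2 and SMAD2 were the most abundant members per length, and SMAD4 and TGFB1 came next. TGFBR2 was the highest at 70.2 FPKM in FLAG-CBFB cells and 53.3 FPKM in parental cells. In the order of the FLAG-CBFB cell input it was followed by SMAD2 (54.7 and 43.3), SMAD4 (37.9 and 24.1), TGFB1 (24.8 and 27.1), SMAD3 (15.5 and 9.38), SKI (14.4 and 10.9), TGFBR1 (7.13 and 4.33) and SMAD7 (2.47 and 2.96). The ranges of the 2 inputs overlapped between the neighbours TGFBR2 and SMAD2, SMAD4 and TGFB1, SMAD3 and SKI, and SMAD6 and TGFB2. In bulk RNA, fewer cells holding a transcript and less of it per cell cannot be told apart.

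After immunoprecipitation the order changed. TGFB1 became the most abundant member in all 3 RIPs. SKI moved from the middle of the order to the place just below TGFBR2 in both hnRNPK RIPs, at 9.13 and 8.84 FPKM against 11.1 and 10.7 for TGFBR2. SMAD4, above SKI in both inputs, had less FPKM than SKI in all 3 RIPs. Between the neighbours SMAD3 and SMAD2 the hnRNPK repeats overlapped, at 3.72 and 2.76 FPKM for SMAD3 and 3.10 and 2.18 FPKM for SMAD2.

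TGFB1 (ENSG00000105329) encodes the TGF-beta ligand that these cells expressed most. Its level was 24.8 FPKM in the FLAG-CBFB cell input and 43.2 FPKM in the FLAG-CBFB RIP, and 27.1 FPKM in the parental input against 27.7 and 19.6 FPKM in the hnRNPK RIPs. It thus lay above its input in the CBFB RIP and near its input in the hnRNPK RIPs, where 1 repeat was above and 1 below. Centred enrichment was 2.12 for CBFB, where the ratio of 6568 and 9827 counts had a counting error of 0.05 (95%, log2). For hnRNPK it was 2.64 and 2.23, a mean of 2.43 ± 0.29 (SD, n = 2). TGFB1 was the only analysed member called for CBFB, against 4.37% of all analysed genes, and 1 of 2 called for hnRNPK, against 8.2%. Only TGFB1 had more FPKM in the FLAG-CBFB RIP than in its input, as did 7% of analysed genes, and no member exceeded the parental input in both hnRNPK RIPs, as did 4.27%. The study took TGFB1 for real-time PCR from transcripts it had called bound in these libraries, so these values are not independent of that choice. Its primers lie in the coding sequence, forward tacctgaacccgtgttgctc at bases 1298 to 1317 and reverse, on the other strand, aacttgagcctcagcagacg at bases 1333 to 1352 of the transcript above, and neither overlaps the C-rich stretch.

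TGFB2 (ENSG00000092969), a second ligand of the same receptors, was barely expressed. The FLAG-CBFB cell input held 25 counts and its RIP 14, while the parental input held 51 and the hnRNPK RIPs 33 and 27. As a share of all counts, TGFB2 in the RIP was 0.659 times its input for CBFB, with a 95% interval of 0.316 to 1.32 that covers counting error only. For hnRNPK the ratio was 0.438 (0.274 to 0.692) and 0.408 (0.246 to 0.663). These ratios are not relative to other genes, most of which had low shares in the RIPs. In an edgeR test with no filter on low values, TGFB2 was higher in the hnRNPK RIPs relative to other genes by 2.32 ± 0.74 (log2, SE, adjusted p = 0.0087). A change of its share for CBFB was not detectable at this depth.

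TGFBR1 (ENSG00000106799), the type I receptor kinase, was scarce in the hnRNPK RIPs. It had 7.13 FPKM in the FLAG-CBFB cell input and 1.32 FPKM in the RIP, and 4.33 FPKM in the parental input against 0.28 and 0.17 FPKM in the hnRNPK RIPs. Centred enrichment was -0.47 for CBFB and 0.52 ± 0.04 (SD, n = 2) for hnRNPK, but the hnRNPK value turned to -0.35 with a pseudocount of 0.1 in place of 1. On the count scale, where edgeR's quasi-likelihood test set the hnRNPK RIPs against the parental input, the log2 fold change was 0.08 ± 0.41 (SE, adjusted p = 0.89).

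TGFBR2 (ENSG00000163513), the type II receptor that binds ligand first, was the most abundant member in both inputs and came after TGFB1 in all 3 RIPs. It had 70.2 FPKM in the FLAG-CBFB cell input and 18.5 FPKM in the RIP, and 53.3 FPKM in the parental input against 11.1 and 10.7 FPKM in the hnRNPK RIPs. The hnRNPK repeats nearly coincided. Centred enrichment was -0.53 for CBFB and 0.46 ± 0.01 (SD, n = 2) for hnRNPK. The count test put TGFBR2 higher in the hnRNPK RIPs relative to other genes, by 1.69 ± 0.34 (log2, SE, edgeR adjusted p = 0.00068).

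SMAD2 and SMAD3, the receptor-activated SMADs, parted from each other. SMAD3 (ENSG00000166949) had 15.5 FPKM in the FLAG-CBFB cell input, 6.61 FPKM in the RIP, 9.38 FPKM in the parental input, and 3.72 and 2.76 FPKM in the hnRNPK RIPs. SMAD2 (ENSG00000175387) had 54.7, 16.2, 43.3, 3.10 and 2.18 FPKM in the same order. SMAD2 outnumbered SMAD3 by FPKM in both inputs, and in both hnRNPK RIPs SMAD3 was ahead.

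For hnRNPK the centred enrichment of SMAD3 was 1.47 and 1.21 in the repeats, a mean of 1.34 ± 0.18 (SD, n = 2), and that of SMAD2 was -0.82 and -1.12, a mean of -0.97 ± 0.21. The gap exceeded the spread between repeats. For CBFB the values were 0.22 for SMAD3 and -0.36 for SMAD2 by FPKM. By counts centred in the same way both stood at 0.13 for CBFB, so that gap was seen by FPKM only. In the count test SMAD3 was higher in the hnRNPK RIPs by 2.48 ± 0.38 (log2, SE, edgeR adjusted p = 3.8e-05).

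SMAD2 took opposite signs by FPKM and by counts. The count test gave a log2 fold change of 1.01 ± 0.35 (SE, edgeR adjusted p = 0.030), which lost the threshold against the input of FLAG-CBFB cells (0.77, adjusted p = 0.081), against both inputs (0.84, adjusted p = 0.054) and with no filter on low values (0.60, adjusted p = 0.26). Counts centred like the FPKM put it at 0.63. RSEM's mean transcript length, by which FPKM divides, was 1771 nt for SMAD2 in the parental input, but 3290 and 3944 nt in the hnRNPK RIPs, 1.86 and 2.23 times longer. Both hnRNPK repeats were over 1.5 times longer than the input in 4.06% of the 7644 analysed genes with at least 100 counts in each library, and SMAD2 was the only analysed member among them.

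SMAD4 (ENSG00000141646), the common partner of the receptor-activated SMADs, was the least enriched member. Input and RIP of FLAG-CBFB cells held 37.9 and 4.21 FPKM of it, and the parental input held 24.1 FPKM against 1.03 and 0.72 FPKM in the hnRNPK RIPs. Centred enrichment was -1.56 for CBFB, lower than in all but 0.323% of analysed genes, and -1.10 ± 0.12 (SD, n = 2) for hnRNPK.

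The low CBFB value of SMAD4 also moved with the transcript length. Its mean length was 2058 nt in the FLAG-CBFB cell input and 3616 nt in the RIP, 1.76 times longer, and such a lengthening, by over 1.5 times, was seen in 0.56% of the 10897 analysed genes with 100 counts or more in the pair. In the hnRNPK RIPs it was 2672 and 3399 nt against 1874 nt. By centred counts SMAD4 stood at -0.70 for CBFB, where 17.2% of genes were lower, and at -0.47 for hnRNPK. The count test for hnRNPK gave -0.10 ± 0.34 (log2, SE, edgeR adjusted p = 0.84), the same as the median gene. TGFB1, TGFBR2 and SKI kept their length within a small range in all 5 libraries, from 2480 to 2667 nt, 4615 to 4616 nt and 5300 to 5510 nt. The part of transcript choice in the SMAD2 and SMAD4 values was not tested.

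**Figure D2:**
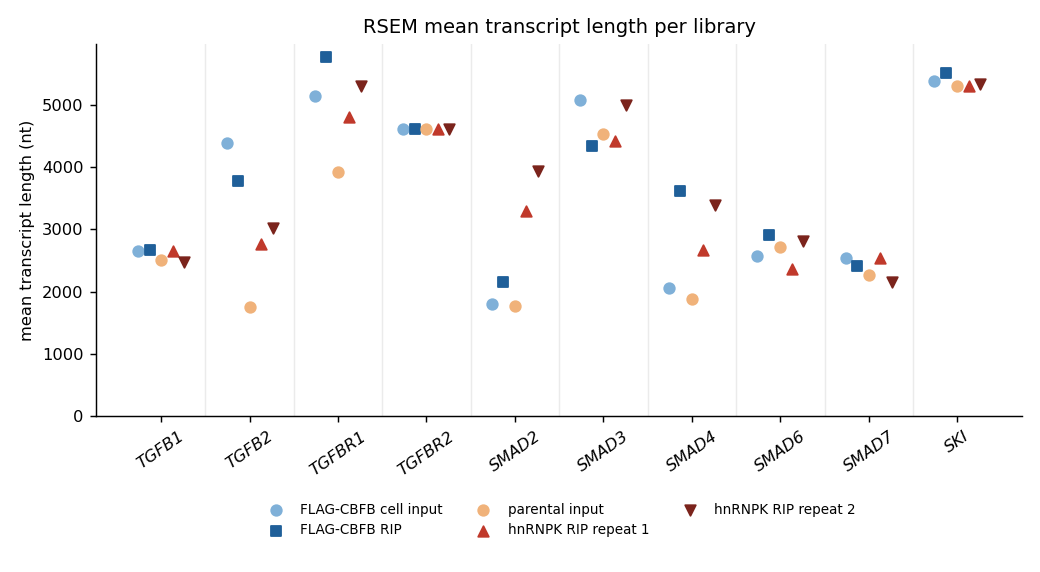
RSEM's mean transcript length in nt of the 10 mRNAs, with 1 point per library. SMAD2 is at 1771 nt in the parental input and at 3290 and 3944 nt in the hnRNPK RIPs, SMAD4 at 2058 nt in the FLAG-CBFB cell input and 3616 nt in the RIP, and TGFBR2 stays at 4615 to 4616 nt.

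SMAD6 and SMAD7, the inhibitory SMADs, had the lowest FPKM of the SMADs among the members. SMAD7 (ENSG00000101665), which blocks SMAD2 and SMAD3 at the receptor, had 2.47 FPKM in the FLAG-CBFB cell input and 0.82 FPKM in the RIP, and 2.96 FPKM in the parental input against 0.40 and 0.39 FPKM in the hnRNPK RIPs. Centred enrichment was 0.41 for CBFB and 1.14 ± 0.04 (SD, n = 2) for hnRNPK. The CBFB value was 0.08 with a pseudocount of 0.1 and -0.07 by centred counts. The ratio of RIP to input counts for CBFB had a counting error of 0.25 (95%, log2), which leaves out the pseudocount and the centring. The count test gave 1.12 ± 0.46 (log2, SE, edgeR adjusted p = 0.064), not past the threshold of 0.05.

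SMAD6 (ENSG00000137834), whose main targets are the SMADs of the BMP branch, had 17 counts in the FLAG-CBFB cell input and 3 in the RIP. The parental input held 36 counts, and each hnRNPK RIP held 6. As a share of all counts the RIP was 0.208 times the input for CBFB (95% interval 0.0390 to 0.718), and 0.113 (0.0389 to 0.270) and 0.128 (0.0443 to 0.308) for hnRNPK. These ratios are not centred, and shares of nuclear transcripts were low in every RIP. Relative to other genes, the edgeR fit with no filter on low values put SMAD6 in the hnRNPK RIPs at 0.51 ± 1.06 (log2, SE). A change relative to other genes was thus not detectable at this depth.

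SKI (ENSG00000157933), which binds SMAD proteins and represses their targets, was the second member called for hnRNPK. It had 14.4 FPKM in the FLAG-CBFB cell input and 10.3 FPKM in the RIP, and 10.9 FPKM in the parental input against 9.13 and 8.84 FPKM in the hnRNPK RIPs. In each RIP it kept more of its input FPKM than every member but TGFB1, and in hnRNPK repeat 2 more than TGFB1 too. Centred enrichment was 2.37 and 2.40 for hnRNPK, a mean of 2.39 ± 0.02 (SD, n = 2), and 0.89 for CBFB, where 89.9% of analysed genes were lower. Against the input of FLAG-CBFB cells the hnRNPK value was 1.98, under the limit.

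By the count test SKI and TGFB1 changed most among the members. SKI was higher in the hnRNPK RIPs by 3.69 ± 0.39 (log2, SE, edgeR adjusted p = 4.6e-07) and TGFB1 by 3.80 ± 0.40 (adjusted p = 4.8e-07), beside a median of -0.10 over all analysed genes. In all, 5 of the 8 analysed members were higher (TGFB1, TGFBR2, SMAD2, SMAD3 and SKI), 0 were lower and 3 did not pass (TGFBR1, SMAD4 and SMAD7). Over all analysed genes 24.6% were higher and 14.3% lower, and 47.4% had an unadjusted p under 0.05. The median log2 fold change was 1.41 over the 8 members. The p-values measure the spread between 2 hnRNPK repeats, which may be technical, and the lone input was assumed to vary like them.

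**Figure D3:**
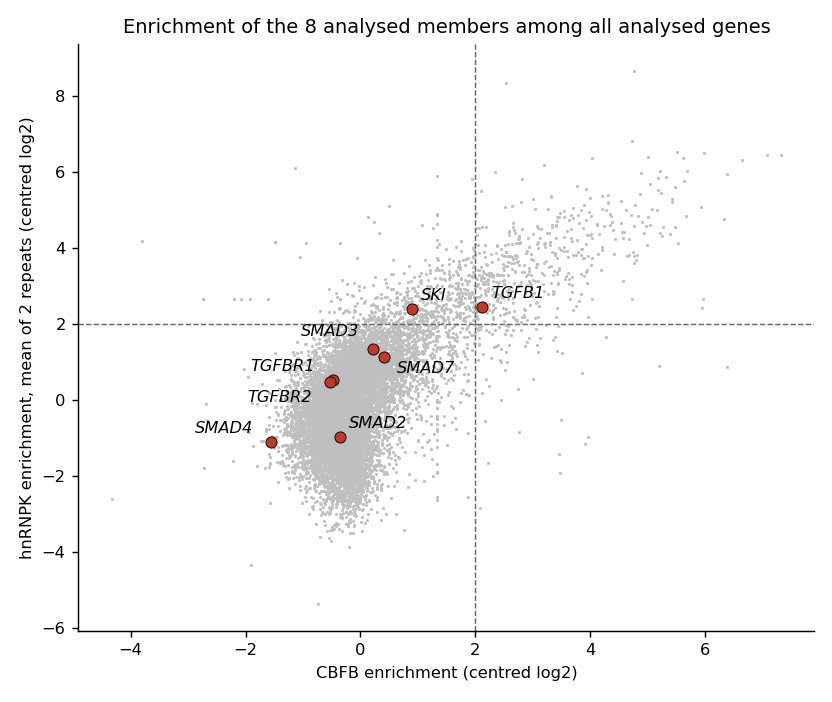
Centred log2 enrichment of all 11764 analysed genes (grey) and of the 8 analysed members (red), with CBFB on the horizontal and the mean of 2 hnRNPK repeats on the vertical axis, and dashed lines at 2. TGFB1 (2.12 and 2.43) lies above both lines, SKI (0.89 and 2.39) above the hnRNPK line only, and SMAD4 (-1.56 and -1.10) at the left edge of the cloud.

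Set side by side, the CBFB value was lower than both hnRNPK repeats in 7 of the 8 analysed members, SMAD2 being the exception, as in 50.1% of analysed genes. The comparisons share no library, and the count depended on the scale and on the input. By centred counts SMAD2 too was lower for CBFB, at 0.13 against 0.67 and 0.59 in the hnRNPK repeats. Against the input of the other cells, the CBFB value was above both hnRNPK repeats for TGFBR1, SMAD2, SMAD3 and SMAD4. It stayed below both for TGFB1, TGFBR2, SMAD7 and SKI. Medians over the 8 members were -0.07 for CBFB and 0.83 for hnRNPK, against -0.19 and -0.11 over all analysed genes. Centred values spread more for hnRNPK (SD of 1.46 over analysed genes) than for CBFB (0.92). TGFBR1 and TGFBR2 took opposite signs, below 0 for CBFB and above 0 in both hnRNPK repeats, as did 27% of analysed genes. With the input of the other cells the signs of TGFBR1 reversed, to 0.17 for CBFB and -0.09 and -0.15 for hnRNPK.

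The ratio of one member to another within a library needs no centring. TGFB1 stood to SMAD4 at 0.655 in the FLAG-CBFB cell input and 10.3 in the RIP by FPKM, 15.7 times higher, and at 1.13 in the parental input against 26.9 and 27.2 in the hnRNPK RIPs, 23.8 and 24.1 times higher. By counts, which do not divide by length, it was 8.64, 17.2 and 12.6 times higher. TGFB1 was therefore higher relative to SMAD4 in all 3 RIPs on both scales. Relative to TGFBR2, whose length hardly differed, TGFB1 was 6.60 times higher in the FLAG-CBFB RIP and 4.89 and 3.59 times higher in the hnRNPK RIPs, and for SKI the ratio was 2.71, 4.003 and 4.02 times its input value. SMAD4 stood at 0.421, 0.205 and 0.149 times its input ratio to TGFBR2, and SMAD3 at 1.61, 1.90 and 1.46 times.

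**Figure D4:**
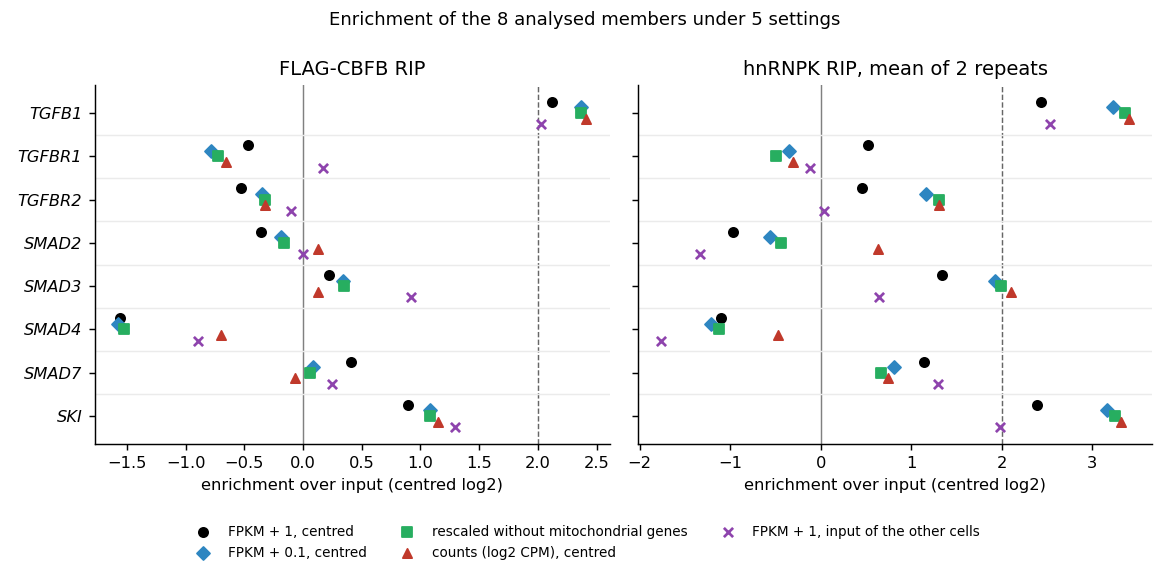
Enrichment over input (centred log2) of the 8 analysed members for the FLAG-CBFB RIP (left) and the mean of 2 hnRNPK RIPs (right) under 5 ways of computing it, with the dashed line at 2. TGFB1 stays to the right of the line in both panels, while SMAD2 changes side of 0 for hnRNPK between FPKM (-0.97) and counts (0.63).

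A place among genes cannot move with a setting that shifts all genes alike, so it was compared over the pseudocount, the rescaling, the counts and the other input. For TGFB1 95.6 to 96.1% of analysed genes were lower for CBFB and 94.0 to 94.7% for hnRNPK, and for SKI 91.3 to 94.3% were lower for hnRNPK. With FPKM rescaled without mitochondrial transcripts, TGFB1 stood at 2.37 for CBFB and 3.36 for hnRNPK, and SKI at 1.08 and 3.26. The place of SMAD2 for hnRNPK ran from 16.2 to 75.1%, and that of SMAD4 from 7.87 to 50.7%. Without centring, TGFB1 and SKI stood at -0.21 and -0.26 for hnRNPK beside a median gene of -2.75, so a positive value is relative to other genes, not more FPKM than in the input.

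The members with the densest C runs, TGFB1 and SKI at 17.7 and 16.9 CCCC per kb, were also those called for hnRNPK. By centred FPKM + 1, SMAD7 and SMAD3 followed in both among the analysed members. TGFBR2, near the median density, stood above SMAD7 with a pseudocount of 0.1 (1.17 against 0.81) and by centred counts (1.31 against 0.74). With the input of the other cells it stood below (0.04 against 1.30). SMAD4 was low in both. SMAD2 had few C runs, with an hnRNPK value of -0.97 by FPKM and 0.63 by centred counts. TGFBR1 had the fewest, with 0.52 by FPKM, -0.35 with a pseudocount of 0.1 and -0.31 by centred counts. With the transcript nearest in length to the one seen in the libraries, the density was 2.03 per kb for SMAD2, 1.46 for SMAD4 and 10.95 for SMAD7.

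Across the 10507 analysed genes with a matched transcript, Spearman's rho between CCCC per kb and enrichment was 0.24 for hnRNPK and 0.22 for CBFB by FPKM, a description across genes that share libraries and base composition. By counts (log2 CPM) rho was 0.35 for hnRNPK and 0.20 for CBFB. Among the 526 genes with the densest runs, 15.8 to 50.2 per kb, the group of TGFB1 and SKI, 41.1% were called for hnRNPK and the median enrichment was 1.47. Among the 1051 genes with the sparsest runs, up to 1.24 per kb, 0.476% were called and the median was -0.64. Most genes with dense runs were thus not called, and the match of a motif is no binding site.

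**Figure D5:**
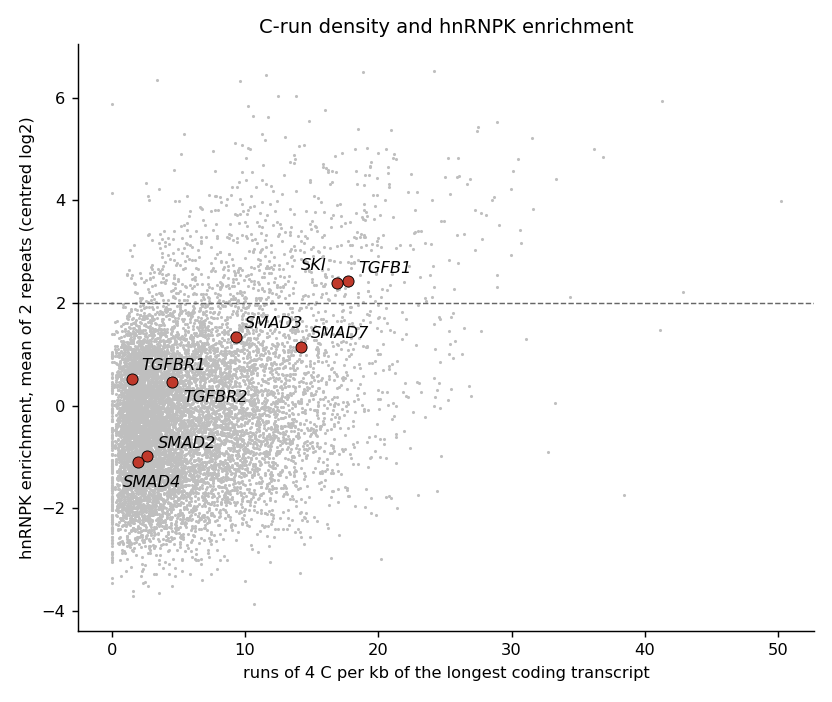
Runs of 4 C per kb of the longest coding transcript (horizontal) and mean hnRNPK enrichment (vertical, centred log2) of the 10507 analysed genes with a matched transcript (grey) and the 8 analysed members (red), with a dashed line at 2. SKI and TGFB1 lie at 16.9 and 17.7 runs per kb above the line, and SMAD4, SMAD2 and TGFBR1 lie at 1.94, 2.64 and 1.53.

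Other genes of the pathway were taken from a list of 70, of which 56 were analysed. None was called for CBFB, against 4.37% of all analysed genes, and 6 (10.7%) were called for hnRNPK, against 8.2%. In the count test 24 (42.9%) were higher in the hnRNPK RIPs and 7 (12.5%) were lower, against 24.6% and 14.3%, and 25 did not pass, and the median log2 fold change was 0.60, against -0.10 over all analysed genes. Of the 3 analysed ligands 2 were higher and 1 was lower. GDF11, a ligand of the activin type, was higher by 2.74 ± 0.48 (log2, SE, edgeR adjusted p = 0.00015), and its CBFB enrichment was 1.74. GDF15, a distant member secreted under stress, was lower at -1.497 ± 0.50 (adjusted p = 0.024), with a wide spread between repeats in centred enrichment, -2.13 ± 0.77 (SD, n = 2), and did not pass against the input of FLAG-CBFB cells (-0.53, adjusted p = 0.43).

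Among 9 proteins that store or activate ligand, 4 were higher, 1 was lower and 4 did not pass. The lower one was THBS1, named after its values were seen, at -1.28 (log2). Against the input of FLAG-CBFB cells THBS1 changed sign, to 1.56. LTBP4, which tethers latent TGF-beta to the matrix, was called for hnRNPK at 2.42 ± 0.50 (SD, n = 2), and higher by 3.45 ± 0.41 in the count test (log2, SE, edgeR adjusted p = 2.1e-06). Its CBFB enrichment was 1.89. Of the 9 other receptors and co-receptors 4 were higher and 0 lower, and of the BMP-branch SMADs 1 of 2 was higher. This depended on the input, since TGFBR3 and BMPR1A, named after their values were seen, were lower against the input of FLAG-CBFB cells.

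Of 19 SMAD partners and regulators 8 were higher, 1 was lower and 10 did not pass. EP300, an acetyltransferase that SMAD complexes recruit to activate genes, had the highest hnRNPK enrichment of the 56 analysed genes at 2.68 ± 0.11 (SD, n = 2), with a count-based change of 4.02 ± 0.40 (log2, SE, edgeR adjusted p = 2.4e-07) and a CBFB enrichment of 1.23. In the branch without SMADs 3 of 4 were higher. MAP3K7, named after its values were seen, was lower against the input of FLAG-CBFB cells.

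Of the textbook targets of the pathway 2 were higher, 4 were lower (ID1, ID3, TGFBI and FN1) and 4 did not pass, and the median hnRNPK enrichment was -0.69. None of these 4 was called lower against the input of FLAG-CBFB cells or against both inputs. FN1 changed sign, from -1.30 (log2) against the parental input to 2.20 against the input of FLAG-CBFB cells. Those inputs held 20.55 and 1.32 FPKM of it. SNAI1, a transcription factor of epithelial-mesenchymal transition, was higher by 3.78 ± 0.47 (log2, SE, edgeR adjusted p = 3.5e-06), with a centred enrichment of 2.53 ± 0.07 (SD, n = 2) for hnRNPK and 1.995, just under the limit, for CBFB. Its input levels were low, at 0.46 FPKM (74 counts) in FLAG-CBFB cells and 1.56 FPKM in parental cells. A gene at 0 FPKM in every library takes 2.64 for hnRNPK and 1.34 for CBFB by that measure. ID1, an inhibitor of basic helix-loop-helix factors, was lower at -1.22 ± 0.33 (adjusted p = 0.0063), but at -0.22 (adjusted p = 0.64) against the input of FLAG-CBFB cells. TGFBI, a secreted matrix protein named for its induction by TGF-beta, was lower at -0.96 ± 0.30 (adjusted p = 0.019), but at -0.16 (adjusted p = 0.71) against that input, while its CBFB enrichment was 0.29. The called genes also included CDKN1A, RNF111 and ACVR1B, named after their values were seen, at 2.33, 2.06 and 2.01.

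The genes whose profile over the 5 libraries lay nearest to that of TGFB1 were UNC5B-AS1, SHISA4 and AKIRIN2. Their Euclidean distances of log2(FPKM + 1), each less its own mean, were 0.145, 0.204 and 0.267. AKIRIN2 had the levels most like TGFB1, at 23.4 and 46.6 FPKM in the FLAG-CBFB cell input and RIP. The nearest to SMAD4 were NFE2L1 (0.180), SUN2 (0.186) and RBM5 (0.218), with CBFB enrichments of -1.55, -1.70 and -1.53. UNC5B-AS1 is annotated as an antisense gene, and reads from it and the gene on the other strand cannot be told apart without strand.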

How the data were processed

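The 5 libraries of MCF10A cells were grouped by their titles. Per the submitters' processing notes, the authors used Trimmomatic, STAR and RSEM with hg19; versions were not given in the sources used here. The labels name a TruSeq mRNA kit. The deposited expected counts are estimates by RSEM and can be fractional. The deposited FPKM values divide them by effective transcript length and library total. The deposited mean transcript length, in nt, is weighted by abundance, and was compared between libraries and used to pick a transcript of like length.

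Genes were named through tables of identifiers (49995 of 56632). Enrichment was centred log2(FPKM + 1) of a RIP less its own input. The hnRNPK RIPs (2) were tested against the parental input (1) with edgeR 4.0.16 (R 4.3.3), using the quasi-likelihood test, TMM factors, counts rounded to whole numbers, and Benjamini-Hochberg adjustment over 11764 genes, and the steps were tested on simulated data. CBFB had 1 library per arm and no test. Intervals are exact at 95% and cover counting error only. Named genes were the members, RUNX1, GAPDH, the listed pathway genes with the 3 highest and 3 lowest hnRNPK and the 3 highest CBFB enrichments, and the 3 genes nearest in profile to the member highest and the member lowest for hnRNPK. Members and lists were chosen with earlier results of these data known. Motifs were counted in GENCODE 29 transcripts; no coordinates were taken from that build. Alternatives were other pseudocounts, centrings, filters, inputs, scalings, repeats left out and DESeq2 1.42.0.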

Additional observations from a re-analysis of the deposited data

Results flagged for a closer look

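The CBFB and both hnRNPK enrichments had opposite signs in 2 members, and in 21 of the 56 analysed pathway genes, of which TGFBI is among those named by rule. The CBFB value minus the mean hnRNPK value was -0.99 for TGFBR1 and -0.98 for TGFBR2, each negative for CBFB and positive for hnRNPK. For TGFBI it was 2.50, positive for CBFB and negative for hnRNPK. These differences were not tested, since CBFB has 1 RIP library, and 27% of analysed genes have opposite signs. The hnRNPK value of TGFBR1 was -0.35 with a pseudocount of 0.1. Against the input of the other cells, TGFBR1 stood at 0.17 for CBFB and -0.12 for hnRNPK, and TGFBR2 at -0.11 and 0.04. The input of FLAG-CBFB cells less the parental input (centred log2) was 0.64 for TGFBR1, 0.42 for TGFBR2 and -0.98 for TGFBI.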

How the results depend on the processing

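The count of members above 4-fold for CBFB was 1, and 0 without centring and with centring over all genes. For hnRNPK it was 2, and 0 under those settings, 1 (TGFB1) against the input of the other cells, 3 (TGFB1, SMAD3 and SKI) by log2 CPM under each of its 3 scalings, and 4 (TGFB1, SMAD3, SMAD7 and SKI) at a limit of 2-fold. It was 2 to 2 when either hnRNPK repeat was left out. Without centring the hnRNPK values of TGFB1 and SKI turned to -0.21 and -0.26. The number of pathway genes lower in the hnRNPK RIPs was 7, but 4 with DESeq2 and 2 with both inputs as controls, where none of the 4 textbook targets remained. The count of members higher was 5 to 6 over the alternatives, with 0 lower in each, but with no filter SMAD2 was lost (adjusted p = 0.26) and TGFB2 was added (0.0087), and SMAD2 was lost against the other input (0.081) and both inputs (0.054). SMAD7 passed the threshold with DESeq2 size factors (adjusted p = 0.047), against the FLAG-CBFB cell input (0.034) and against both inputs (0.047). Counts (log2 CPM) centred on the mean were chosen after seeing the data. No paired analysis was possible because hnRNPK RIPs numbered 1 and 2 face a single input. CBFB values rest on 1 library per arm, and TGFB2 and SMAD6 on 3 to 51 counts.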
